A study of Homo sapiens with 6 samples.

Results

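Acyl-CoA synthetases couple a fatty acid or acetate to coenzyme A, and the 10 genes described here encode long-chain, short-chain and medium-chain members of this enzyme superfamily: ACSL1, ACSL3, ACSL4, ACSL5, ACSS1, ACSS2, ACSS3, ACSF2, ACSF3 and ACSM3. They were chosen by name, as enzymes that activate fatty acids and acetate, with earlier results of these data known. All 10 were found among the 60240 genes of the deposited expression table. The cells were HepG2, a human hepatocellular carcinoma line. Control cultures received no GDF11 as far as the labels say, and treated cultures received 100 ng/ml of recombinant GDF11 (growth differentiation factor 11, a secreted ligand of the TGF-beta family) for 24 h. The labels name no genetic change in either group, and total RNA of 3 biological replicates of each group was sequenced. The series title places the experiment in the context of lipid accumulation driven by GDF11. As a model the study rests on 1 tumour line in culture, for RNA and at 1 dose and time.

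A free fatty acid is chemically inert until a synthetase activates it, in a reaction that uses ATP and passes through an acyl-AMP intermediate bound to the enzyme. The resulting thioester is then used for triglyceride and phospholipid synthesis, for beta-oxidation, for sterol esters or for protein acylation, and in hepatocytes the isoform and its place in the cell are thought to influence which route is taken. Acetate is activated in the same way, by ACSS2 in the cytosol and nucleus and by ACSS1 in mitochondria, which supplies acetyl-CoA for lipid synthesis, histone acetylation or oxidation.

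Levels are given on the variance-stabilised log2 scale of the deposited table, where 5.52 marks the absence of reads, or as normalised reads obtained by inverting that scale. The step of 1 read on the inverted scale gave an estimated 47900000 to 53400000 reads per library. The labels name a MiSeq, whose runs are known to yield fewer, and the sources used here do not settle the difference, so that this depth is uncertain. On that scale each of the 10 genes rested on 902 or more normalised reads in every library. All 10 hepatocyte markers examined, ALB and APOB among them, were expressed, at 3.28% to 3.89% of reads in controls and 2.89% to 3.16% with GDF11. ALB (log2 difference -0.75), APOB (-0.83), TTR (-1.52), AFP (-0.56), FGB (-1.42) and AHSG (-1.03) were called lower with GDF11. APOA1 (-0.93), HNF4A (-0.46), TF (-0.37) and SERPINA1 (0.05) were not called. The 6 markers of fibroblasts or stellate cells (3 above the filter on low values) summed to 1030 to 1590 normalised reads in controls and 2040 to 2670 with GDF11. That rise was in PDGFRB (1136 ± 363 and 2172 ± 335, SD, n = 3 each), while COL6A3 stood at 250 ± 136 and 121 ± 14.6, THY1 at about 10 reads and DCN, LUM and PDGFRA at under 2 on average. The 5 immune markers (3 above the filter) summed to 347 to 768 reads in controls and 239 to 370 with GDF11, mostly from CD14 (546 ± 202 and 279 ± 74.7, not called), with PTPRC and CD3E at 0 in every library and CSF1R called higher at 2.99 and 17.4 reads. The 5 endothelial markers (2 above the filter) summed to 53.1 to 97.3 and 13.2 to 32.9 reads, with TEK and CLDN5 at 0 and VWF called lower at 50.6 and 7.05 reads. The part of these markers in the results was not tested. The response genes of TGF-beta signalling SKIL and SMAD7 rose by 3.06 ± 0.215 and 2.10 ± 0.29 (log2 difference ± SE, limma adjusted p = 3.45e-05 and 0.00124). The RNA integrity number (RIN) of the controls ranged from 9.6, in replicate 3, to 9.9 and that of the treated cultures from 9.4 to 9.6, so that it moved with the treatment. Over all genes, control replicate 3 differed from its fellow controls more than they did from each other (chi-square per degree of freedom of 190.0 and 220.3 against 43.5).

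Among the synthetases, GDF11 treatment came with more ACSL1 RNA and with less ACSS1 and ACSS2 RNA. ACSL1 stood at 2.55 times its control level, whereas the control level of ACSS1 was 7.34 times, and that of ACSS2 2.53 times, the level with GDF11. The other 7 genes were not called. A gene was called when its Benjamini-Hochberg adjusted p in limma was under 0.05 over the 18723 genes tested. Thus 1 of the 10 genes rose and 2 fell, while over all tested genes 22.4% were called, 11.7% higher and 10.8% lower. A count of 3 in 10 lies near that background, so it is the sizes of the changes, not their number, that are described here. The median log2 difference of the 10 genes was 0.02 and that of all tested genes was 0.006. In bulk RNA, fewer cells with a transcript and less of it per cell cannot be told apart.

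**Figure D1:**
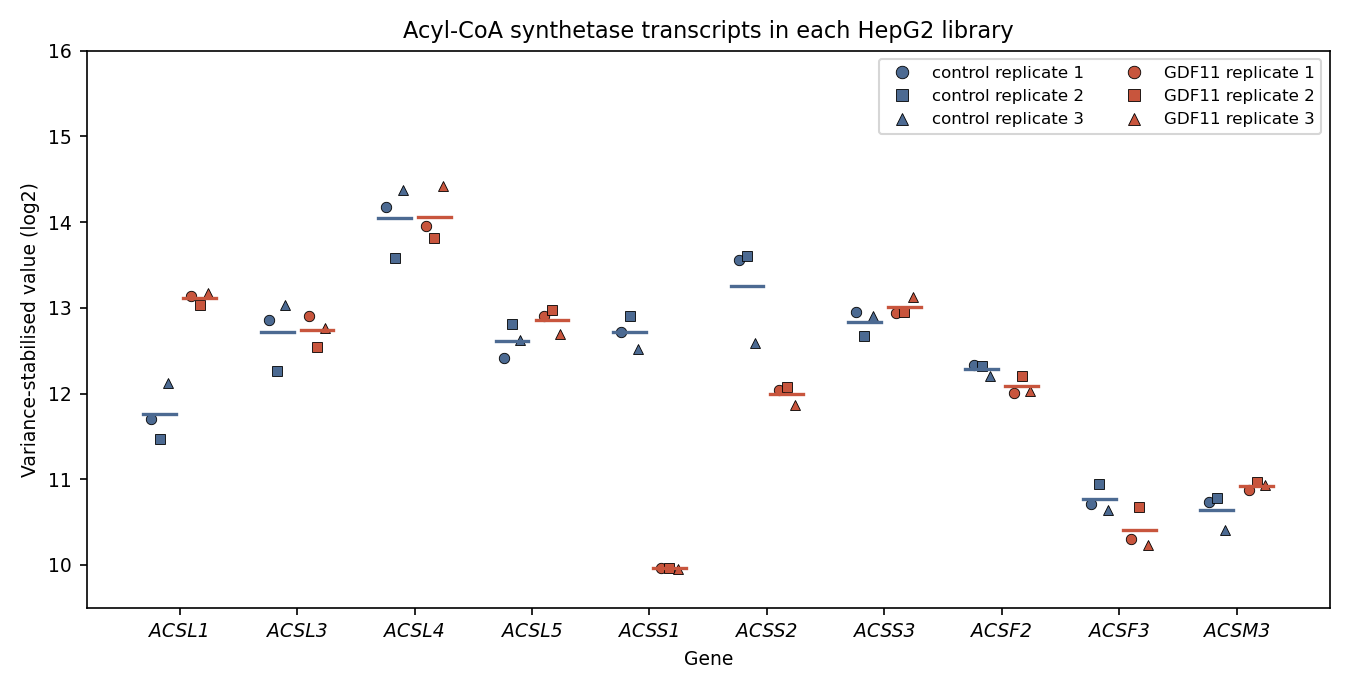
Variance-stabilised log2 value (vertical axis) of each synthetase gene in the 3 control (blue) and 3 GDF11 (red) libraries, with the symbol giving the replicate number and the line the group mean. The GDF11 libraries lie above all controls for ACSL1 (13.03 to 13.17 against 11.47 to 12.12) and below them for ACSS1 (9.95 to 9.97 against 12.52 to 12.90) and ACSS2 (11.87 to 12.08 against 12.59 to 13.60).

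The start regions of the 3 genes that changed are shown here, since these are the members whose RNA responded. Each is the RefSeq window from 250 bases before to 50 bases after a transcription start on GRCh38.p14, and of the several starts the one taken is that of the GENCODE canonical transcript, matched by sequence. ACSL1 is on the minus strand at chr4:184825919-184826218, ACSS1 on the minus strand at chr20:25058090-25058389 and ACSS2 on the plus strand at chr20:34876362-34876661. Sequences run 5′ to 3′ along the gene, and capitals mark matches to GGGCGG (the GC box) or CAGAC (the SMAD box) on either strand, the only ones of 6 motifs searched that matched in these 3 windows.
ACSL1: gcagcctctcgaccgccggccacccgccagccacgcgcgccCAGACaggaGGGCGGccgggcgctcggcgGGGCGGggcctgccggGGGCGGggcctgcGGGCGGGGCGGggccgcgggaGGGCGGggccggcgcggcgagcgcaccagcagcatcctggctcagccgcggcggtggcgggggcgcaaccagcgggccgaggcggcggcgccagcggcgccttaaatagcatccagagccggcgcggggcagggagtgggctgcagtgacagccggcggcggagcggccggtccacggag
ACSS1: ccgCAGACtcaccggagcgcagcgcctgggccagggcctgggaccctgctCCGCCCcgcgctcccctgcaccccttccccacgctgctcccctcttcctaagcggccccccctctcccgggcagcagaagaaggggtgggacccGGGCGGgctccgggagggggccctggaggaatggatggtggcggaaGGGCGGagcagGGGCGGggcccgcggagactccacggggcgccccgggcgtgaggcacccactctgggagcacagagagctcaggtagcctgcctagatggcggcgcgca
ACSS2: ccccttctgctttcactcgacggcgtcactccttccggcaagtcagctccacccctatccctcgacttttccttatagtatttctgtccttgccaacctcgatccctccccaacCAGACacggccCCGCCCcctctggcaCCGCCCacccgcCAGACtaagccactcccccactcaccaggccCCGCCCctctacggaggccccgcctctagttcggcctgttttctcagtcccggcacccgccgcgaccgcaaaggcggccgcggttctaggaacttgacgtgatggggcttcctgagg

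The window of ACSL1 held 6 GC boxes, some of them overlapping, and 1 SMAD box. That of ACSS1 held 4 and 1, and that of ACSS2 held 3 and 2. The GC content of the windows was 82.3% for ACSL1, 75.0% for ACSS1 and 64.3% for ACSS2, against a median of 58.7% over all 35116 RefSeq windows. A GC box occurred in 45.0% of all windows and a SMAD box in 45.3%, and both motifs are short. The sterol regulatory element (TCACNCCAC), the E-box (CACGTG) and the AP-1 site (TGANTCA) were in 1.13%, 7.26% and 7.71% of all windows and in none of these 3. The CCAAT box (CCAAT, in 34.6% of windows) was not in these 3 but was in that of ACSL3, a gene whose RNA was not called. Windows at the canonical start were had for 6 members, and GC boxes were in all 6 (ACSL3, ACSL4 and ACSF3 besides the 3 shown) and SMAD boxes in 5, ACSF3 being the exception. Neither motif therefore divides the genes that were called from those that were not.

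Of the long-chain synthetases, ACSL1 encodes the main isoform of liver and adipose tissue, found on the endoplasmic reticulum and the outer mitochondrial membrane. In replicates 1, 2 and 3, in that order here and below, the controls had 11.70, 11.47 and 12.12 and the treated cultures 13.14, 13.03 and 13.17. The groups did not overlap, and control replicate 3 was the nearest control to the treated libraries. The log2 difference was 1.35 ± 0.19 (SE, 95% interval 0.93 to 1.77, limma adjusted p = 0.00126). In normalised reads, ACSL1 went from 3451 ± 836 to 8784 ± 432 (mean ± SD, n = 3 each). ACSL1 (ENSG00000151726.14) spans 184755595 to 184826594 on chromosome 4 of GRCh38. It was 435th in size among the called increases, counted on the deposited scale. Without control replicate 3 the difference was 1.53, and with RIN as a covariate it was 0.93 (adjusted p = 0.0227), so the call held in both.

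The other 3 long-chain genes showed no such shift. ACSL3, which encodes an isoform of the endoplasmic reticulum and lipid droplet surface, had control values of 12.86, 12.26 and 13.03 and GDF11 values of 12.91, 12.54 and 12.77. ACSL4, whose enzyme prefers arachidonic acid and related polyunsaturated fatty acids, had control values of 14.18, 13.58 and 14.37 and GDF11 values of 13.95, 13.82 and 14.42. In both genes the groups overlapped almost wholly, and replicate 2 of each group was the lowest library. The differences were 0.03 ± 0.22 for ACSL3 (95% interval -0.47 to 0.52, adjusted p = 0.943) and 0.02 ± 0.24 for ACSL4 (-0.53 to 0.57, adjusted p = 0.958). Both intervals leave room for a change of either sign. In controls the log2 ratio of ACSL3 to ACSL4 reads was nearly constant, at -1.33, -1.34 and -1.35, although each gene varied between the same libraries with an SD of 0.40 (ACSL3) and 0.41 (ACSL4). With GDF11 that ratio was -1.04, -1.29 and -1.67. ACSL5, for an isoform of the mitochondrial outer membrane and endoplasmic reticulum, had control values of 12.41, 12.81 and 12.63 and GDF11 values of 12.90, 12.97 and 12.69. These overlapped, and the difference was 0.24 ± 0.16 (95% interval -0.13 to 0.61, adjusted p = 0.324). With library weights ACSL5 was called higher, at 0.39 (adjusted p = 0.0225).

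**Figure D2:**
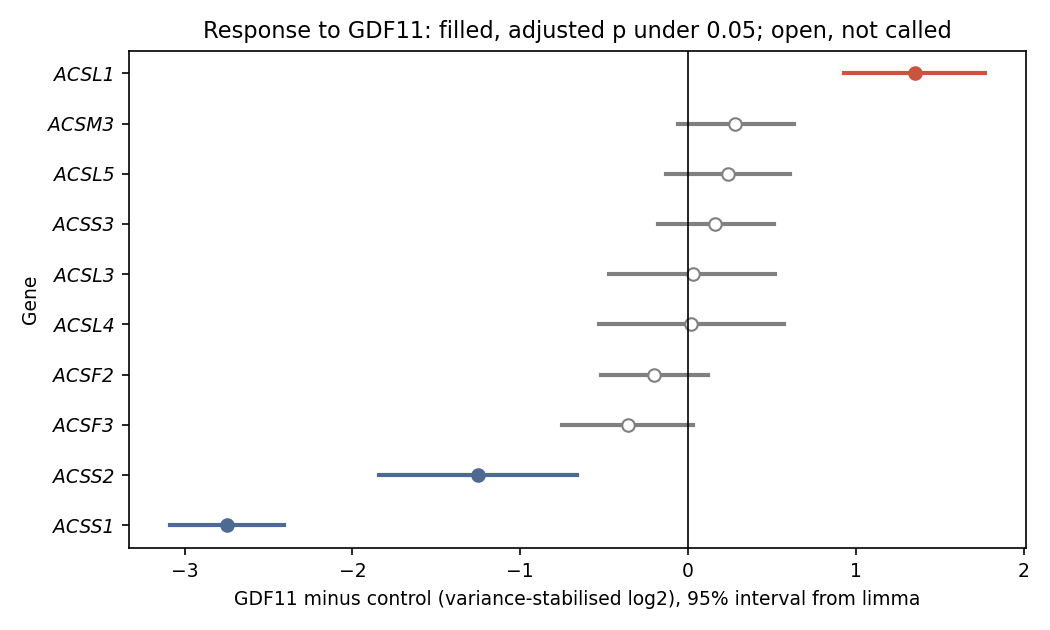
Difference between the GDF11 and control means of each synthetase gene on the variance-stabilised log2 scale (horizontal axis), with limma's 95% interval as a bar. The intervals of ACSL1 (0.93 to 1.77), ACSS2 (-1.84 to -0.66) and ACSS1 (-3.09 to -2.41) do not include 0, and those of the 7 genes drawn with open symbols do.

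Because levels of different genes can be set side by side only per length, reads were divided by the length of the canonical transcript. ACSL4 was the most abundant long-chain gene in both groups, with 3520 ± 931 normalised reads per kb (SD, n = 3) without treatment and 3540 ± 811 (n = 3) after it. ACSL1 was the least abundant of the 4 in controls, at 930.0 ± 225, where its libraries overlapped those of ACSL3 (1220 ± 320.0). With GDF11, ACSL1 reached 2370 ± 116 and stood level with ACSL5 (2260 ± 224), above every library of ACSL3 (1050 to 1370). ACSL1 thus made up 12.2% ± 0.96 of the summed long-chain reads per kb in controls and 25.3% ± 0.92 with GDF11. The share of ACSL4 was 45.9% ± 5.37 and 37.5% ± 5.60, with overlapping libraries. The sum of the 4 genes was 7609, 6269 and 8881 reads per kb in the controls and 9309, 8674 and 10164 with GDF11, which overlapped.

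The response of ACSL1 was also set against that of each other long-chain gene within the same library. The log2 ratio of ACSL1 to ACSL3 reads was -1.18, -0.81 and -0.92 in controls and 0.23, 0.50 and 0.41 with GDF11. Its ratio to ACSL4 rose from a mean of -2.31 to -0.96 and its ratio to ACSL5 from -0.87 to 0.26. None of these 3 ratios overlapped between the groups, while the 3 ratios among ACSL3, ACSL4 and ACSL5 all did. The 3 ratios of ACSL1 share that gene, so they largely restate its rise and are not independent comparisons. Over the 9 ratios computed, 6 long-chain and 3 short-chain, the exact two-sided permutation p of each ratio that did not overlap was 0.1 (0.15 adjusted over the 9), and 0.1 is the smallest that 3 against 3 libraries can give.

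The short-chain synthetases showed the larger decreases. ACSS1 encodes the mitochondrial acetyl-CoA synthetase, which activates acetate for oxidation. Its values were 12.72, 12.90 and 12.52 in controls and 9.96, 9.97 and 9.95 with GDF11, so that the treated libraries were almost identical and far below every control. The log2 difference was -2.75 ± 0.15 (95% interval -3.09 to -2.41, limma adjusted p = 9.7e-06). Normalised reads went from 6653 ± 877 to 907 ± 5.5 (SD, n = 3 each). ACSS1 (ENSG00000154930.15, chromosome 20, 25006237 to 25058139 of GRCh38) was the sixth largest of all called decreases on this scale. Its difference lay between -2.87 and -2.52 under every alternative tried, and the call held in each.

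ACSS2 encodes the nucleocytosolic acetyl-CoA synthetase and is a known target of the sterol-responsive factors SREBP. It lies on the same chromosome as ACSS1, at 34874989 to 34927959 (ENSG00000131069.20). Its control values were 13.56, 13.60 and 12.59, and its GDF11 values were 12.04, 12.08 and 11.87. The groups did not overlap, but control replicate 3 lay nearer to the treated libraries than to the other controls. On a scale from 0, the mean of control replicates 1 and 2, to 1, the GDF11 mean, it stood at 0.63 for ACSS2, at 0.35 for ACSL1 and at 0.10 for ACSS1. The log2 difference of ACSS2 was -1.25 ± 0.26 (95% interval -1.84 to -0.66, limma adjusted p = 0.00986), and without control replicate 3 it was -1.58. When any other library was left out it was -1.29 to -1.08, with limma adjusted p of up to 0.0499. With RIN as a covariate it was -0.51 (adjusted p = 0.255) and the call ended. That number was 9.6 in control replicate 3, the lowest of the controls and equal to that of GDF11 replicate 1, and its part in the result beyond that fit was not tested.

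ACSS3, the third of this family, encodes a mitochondrial enzyme with a preference for propionate. Its values were 12.95, 12.67 and 12.90 in controls and 12.94, 12.95 and 13.13 with GDF11. They overlapped, and the difference was 0.16 ± 0.15 (95% interval -0.18 to 0.51, adjusted p = 0.46). In each library the log2 ratio of ACSS1 to ACSS3 reads was -0.23, 0.23 and -0.39 in controls and -3.10, -3.09 and -3.30 with GDF11. The ratio of ACSS1 to ACSS2 was -0.85, -0.71 and -0.07 in controls and -2.19, -2.21 and -2.02 with GDF11, so that ACSS1 was lower also relative to ACSS2. Both ratios share ACSS1, so they are not independent of its own fall or of each other. The exact p of these ratios is the 0.1 given above.

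Summed over the short-chain genes, normalised reads per kb were 6909, 7108 and 4598 in controls and 2605, 2648 and 2573 with GDF11. The groups did not overlap, and control replicate 3 was the lowest control. ACSS1 supplied 30.1% ± 4.16 of this sum in controls and 9.57% ± 0.08 after treatment (SD, n = 3 each). ACSS3 supplied 14.6% ± 4.54 and 37.2% ± 3.40, although its own level was not called. ACSS2 remained the largest of the 3, at 55.3% ± 8.26 and 53.2% ± 3.47.

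**Figure D3:**
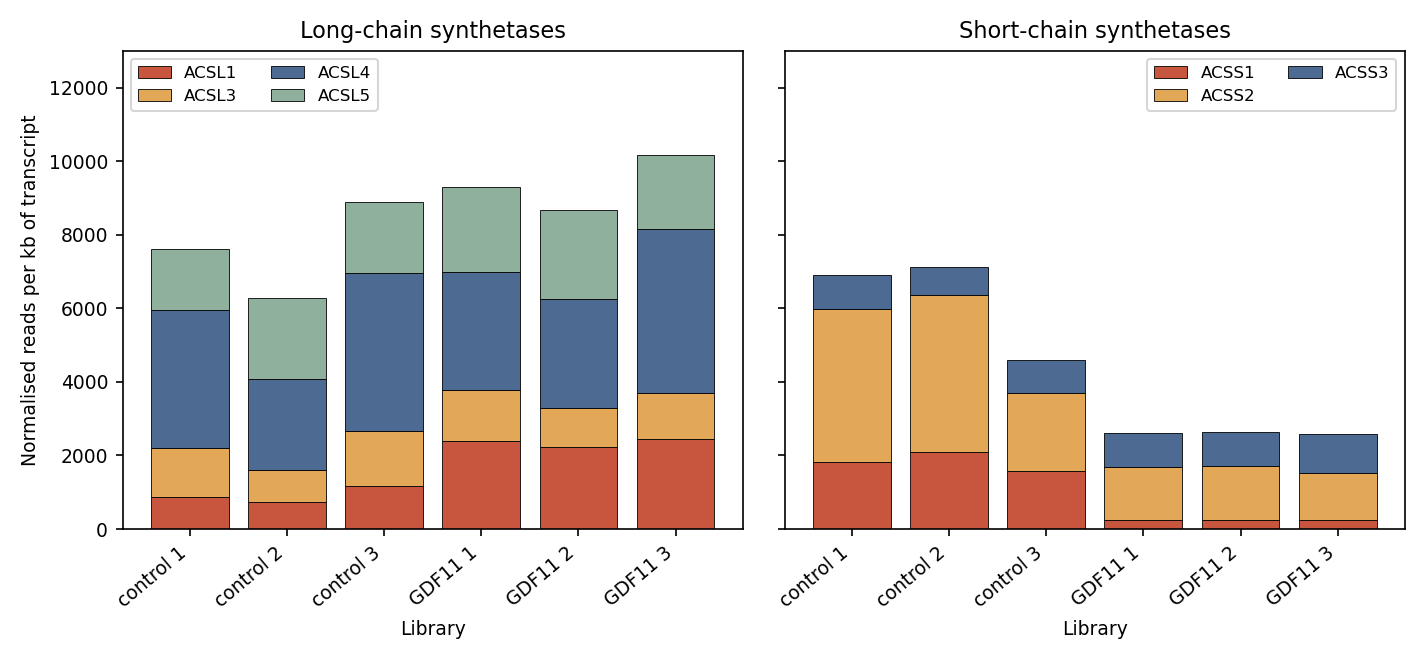
Normalised reads per kb of canonical transcript (vertical axis, from 0) in each of the 6 libraries, stacked by gene for the 4 long-chain genes (left) and the 3 short-chain genes (right). The ACSL1 segment is larger in the GDF11 libraries (2240 to 2460 against 738 to 1180), and the whole short-chain stack is smaller (2573 to 2648 against 4598 to 7108).

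The remaining 3 genes encode mitochondrial enzymes of the wider superfamily. ACSF2, for a medium-chain enzyme, had control values of 12.33, 12.32 and 12.20 and GDF11 values of 12.01, 12.21 and 12.03. The difference was -0.20 ± 0.14 (95% interval -0.52 to 0.12, adjusted p = 0.331), and the groups overlapped. ACSF3 encodes the malonyl-CoA synthetase of mitochondria, which clears malonate and supplies mitochondrial fatty acid synthesis. Its values were 10.71, 10.95 and 10.64 in controls and 10.30, 10.68 and 10.23 with GDF11. GDF11 replicate 2 alone reached into the control range, and the difference was -0.36 ± 0.17 (95% interval -0.75 to 0.03, adjusted p = 0.16). ACSM3, for a medium-chain enzyme that acts on acids such as butyrate, had control values of 10.73, 10.78 and 10.41 and GDF11 values of 10.87, 10.97 and 10.93. Its groups did not overlap, as was the case for 40.5% of all tested genes and 4 of these 10. The difference of 0.28 ± 0.15 was nevertheless not called (95% interval -0.06 to 0.63, adjusted p = 0.212). A gene on the opposite strand, ERI2, overlaps 11.5% of the annotated exonic bases of ACSM3, and the sources used here do not say whether counting used strand. PPFIA2, also on the opposite strand, overlaps 9.1% of those of ACSS3. LINC00304, on the same strand, overlaps 8.1% of those of ACSF3, which counting by strand would not separate.

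Ranked per kb in controls, ACSL4 (3520 reads per kb) and ACSS2 (3510) came first, followed by ACSF2 (2250), ACSL5 (1920), ACSS1 (1830), ACSL3 (1220), ACSL1 (930.0), ACSS3 (865), ACSM3 (598) and ACSF3 (405). Neighbours in this order overlapped between libraries except at 3 places, between ACSS1 and ACSL3, between ACSS3 and ACSM3 and between ACSM3 and ACSF3. With GDF11 the order became ACSL4 (3540), ACSL1 (2370), ACSL5 (2260), ACSF2 (1960), ACSS2 (1390), ACSL3 (1220), ACSS3 (970.0), ACSM3 (731), ACSF3 (312) and ACSS1 (250.0). ACSL1 went from the seventh place to the second, and ACSS1 from the fifth to the last, where no library of it reached the lowest of ACSF3. The sum over all 10 genes was 16468 to 17862 reads per kb in controls and 14595 to 15620 with GDF11. The normalised reads of all genes together were 46100000 to 59400000 in controls and 44600000 to 48500000 with GDF11, and the sums were not scaled to these totals.

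Genes that work beside these enzymes were followed in 8 lists, which hold 114 genes, 105 of them tested. Of these, 6 were called higher and 25 lower, 74 were not called, and the median difference was -0.29. These are 5.71% higher and 23.8% lower, against 11.7% and 10.8% of all tested genes. The lists were chosen with earlier results of these data known, so these shares are no independent test. With the RIN covariate 4 list genes were called higher and 11 lower. Among other acyl-CoA synthetases, 0 of 13 tested genes rose and 5 fell (median -0.35). ACSM2B, a medium-chain synthetase gene of liver and kidney mitochondria, fell by 1.40 ± 0.16 (adjusted p = 0.000388). ACSL6, a long-chain isoform gene known mainly from brain, fell by 1.11 ± 0.17 (adjusted p = 0.0019) from a low level of 8.57 ± 0.22 (SD, n = 3). SLC27A5, which encodes a bile acid and very-long-chain acyl-CoA synthetase of hepatocytes, fell by 1.15 ± 0.23, and ACSM2A fell by 0.76 ± 0.15. Changes at low levels appear smaller on the deposited scale. In normalised reads the control levels of ACSL6, SLC27A5 and ACSM2A were 3.06, 2.5 and 2.51 times those with GDF11. ACSM2A and ACSM2B are near-identical neighbours, so their reads may be divided between them. With the RIN covariate the calls of SLC27A5 (-0.59, adjusted p = 0.215) and ACSM2A (-0.67, adjusted p = 0.131) ended. ACSBG2, ACSM4, ACSM6 and SLC27A6 were at the lowest value in all 6 libraries.

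Enzymes that use long-chain acyl-CoA moved in both directions, with 2 of 23 tested genes called higher and 5 lower (median -0.12). SPTLC3, a subunit gene of serine palmitoyltransferase, fell by 2.63 ± 0.17 (adjusted p = 1.84e-05). SOAT2, which encodes the cholesterol-esterifying enzyme of hepatocytes, fell by 2.04 ± 0.285 (adjusted p = 0.00134) and DGAT1, for a triglyceride-forming acyltransferase, fell by 2.04 ± 0.275 (adjusted p = 0.00111). MOGAT2, a monoacylglycerol acyltransferase gene, fell by 0.99 ± 0.15 (adjusted p = 0.00212). These 4 calls held when any 1 library was left out and with the RIN covariate, though that covariate brought SOAT2 to -1.35 and DGAT1 to -1.24. GPAM, whose enzyme starts glycerolipid synthesis at mitochondria, was named after its values were seen and rose by 1.17 ± 0.18 (adjusted p = 0.00225).

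In coenzyme A synthesis and transport, 0 of 11 genes rose and 3 fell (median -0.22). SLC5A6, the vitamin transporter gene that brings pantothenate into cells, fell by 1.02 ± 0.20 (adjusted p = 0.00696) and SLC25A42, for a mitochondrial coenzyme A carrier, fell by 0.84 ± 0.17 (adjusted p = 0.00797). Both calls ended with the RIN covariate, at -0.56 (adjusted p = 0.134) and -0.74 (adjusted p = 0.102). COASY, for the enzyme of the last steps of coenzyme A synthesis, fell by 0.69 ± 0.20 (adjusted p = 0.0389). This call ended when any 1 library other than control replicate 3 was left out, at -0.74 to -0.58, without a filter on low values (adjusted p = 0.0513), and with the RIN covariate, at -0.19 (adjusted p = 0.622). DCAKD, which encodes a predicted dephospho-CoA kinase, was not called (-0.59 ± 0.19, adjusted p = 0.0544). In acetate and acetyl-CoA supply and use, 0 of 17 tested genes rose and 3 fell (median -0.40). ACAT2, for the cytosolic acetoacetyl-CoA thiolase, fell by 0.82 ± 0.14 (adjusted p = 0.00419), and its call held whichever library was left out, whereas those of FASN (-0.91 ± 0.24, adjusted p = 0.026) and SLC25A1, the mitochondrial citrate carrier gene (-0.99 ± 0.29, adjusted p = 0.0389), ended when any library other than control replicate 3 was left out, at -0.97 to -0.74 (FASN) and -1.07 to -0.80 (SLC25A1). With the RIN covariate these stood at -0.24 (adjusted p = 0.517) and -0.16 (adjusted p = 0.777). SLC16A1, a monocarboxylate transporter gene, was not called (-0.52 ± 0.17, adjusted p = 0.0528), but was with the RIN covariate (-0.82, adjusted p = 0.0333).

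In malonyl-CoA metabolism and mitochondrial fatty acid synthesis, the pathway that ACSF3 supplies, 0 of 10 genes rose and 4 fell (median -0.41). LIAS, the lipoic acid synthase gene, fell by 0.90 ± 0.19 (adjusted p = 0.00991), and its call ended with the RIN covariate (-0.87, adjusted p = 0.108). The calls of HSD17B8 (-0.97 ± 0.26), MECR (-0.79 ± 0.23) and NDUFAB1 (-0.62 ± 0.165), with adjusted p of 0.0272, 0.0399 and 0.0273, each ended without control replicate 1 or 2 or without GDF11 replicate 1 or 3, at -0.99 to -0.80, -0.77 to -0.64 and -0.59 to -0.54. Those of MECR (-0.90) and NDUFAB1 (-0.69) ended also without GDF11 replicate 2. With the RIN covariate the 3 genes stood at -0.23, -0.20 and -0.37, with adjusted p of 0.637, 0.701 and 0.319. Of 11 tested genes listed as thioesterases, ACOT9 was called higher and BAAT lower (median -0.29). The differences of ACOT9 and BAAT were 0.56 ± 0.15 and -0.60 ± 0.13 (limma adjusted p = 0.0256 and 0.0133). In normalised reads the control level of BAAT was 2.61 times its level with GDF11. The call of ACOT9 ended without control replicate 2 or any GDF11 replicate, at 0.50 to 0.62, and that of BAAT without GDF11 replicate 2, at -0.54. Both ended with the RIN covariate, at 0.68 (adjusted p = 0.0663) and -0.43 (adjusted p = 0.251). ACOT7 (-0.73 ± 0.26, adjusted p = 0.0735) and PPT1 (-0.48 ± 0.17, adjusted p = 0.0771) were not called. Of 6 acyl-CoA binding protein genes, ACBD3 was called higher and none lower (median -0.10), and DBI, for the main acyl-CoA binding protein, stood at 12.85 ± 0.15 and 12.66 ± 0.04 (SD, n = 3 each) without a call (adjusted p = 0.358). The call of ACBD3 (0.88 ± 0.24, adjusted p = 0.0293) ended without control replicate 1 or 2 or GDF11 replicate 2 or 3, at 0.67 to 0.86, and with the RIN covariate, at 0.15 (adjusted p = 0.693). ACBD4 (-0.29 ± 0.16, adjusted p = 0.216) and ACBD6 (-0.32 ± 0.16, adjusted p = 0.172) were not called.

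Among transcription factors and coactivators that act on fatty acid genes, 2 of 14 rose and 4 fell (median -0.39). PPARG, a nuclear receptor for fatty acids of which ACSL1 is a known target in fat cells, rose by 1.27 ± 0.14 (adjusted p = 0.00033), and PPARD, its relative, by 0.74 ± 0.16 (adjusted p = 0.0122). MLXIPL, for the glucose-responsive factor ChREBP, fell by 2.01 ± 0.19 (adjusted p = 0.000167) and NR1H3, which encodes the sterol-sensing receptor LXR-alpha, fell by 1.10 ± 0.22 (adjusted p = 0.00874). The call of PPARD ended without GDF11 replicate 1 (0.75, adjusted p = 0.0524) or 2 (0.68, adjusted p = 0.0601), and that of NR1H3 ended with the RIN covariate (-0.46, adjusted p = 0.207).

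**Figure D4:**
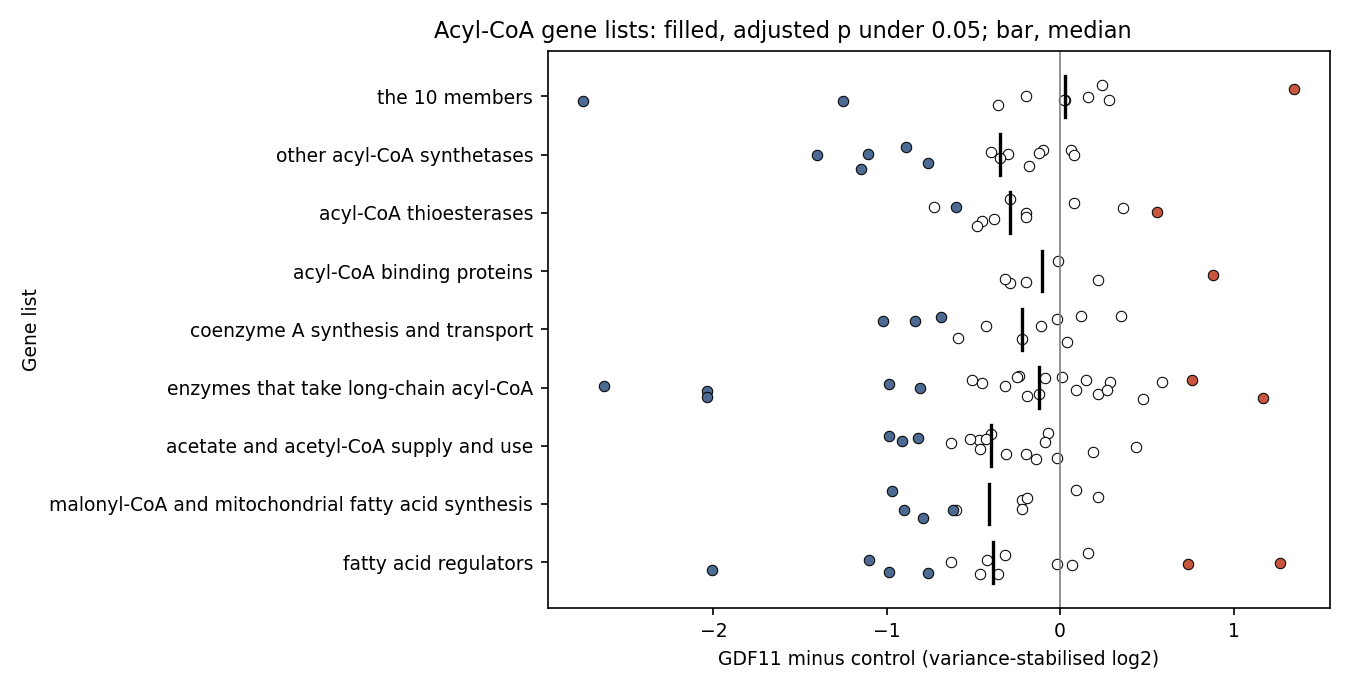
Difference between GDF11 and control means on the variance-stabilised log2 scale (horizontal axis) of each tested gene in the 10 synthetases and the 8 lists, with calls filled in red (higher) or blue (lower) and a bar at the list's median. The 2 blue points of the synthetases are ACSS1 (-2.75) and ACSS2 (-1.25), and the red point is ACSL1 (1.35).

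The dependence on processing of the 3 synthetase calls was small for ACSS1 and largest for ACSS2. ACSL1 lay between 0.93 and 1.53 over 17 alternatives and was called in each. ACSS2 lay between -1.58 and -0.51 and was called in all but the fit with the RIN covariate. Without control replicate 1 its limma adjusted p was 0.0499, barely under the threshold.

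**Figure D5:**
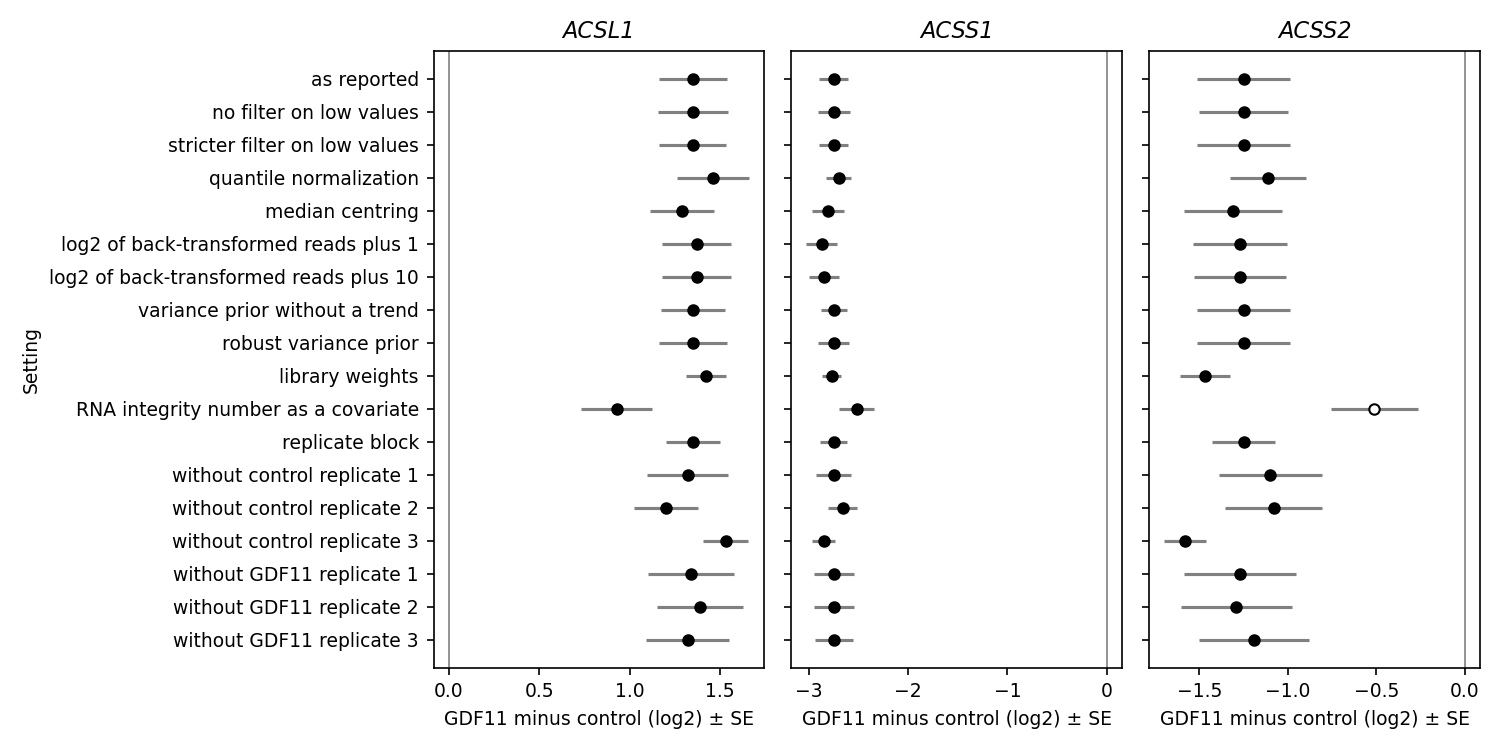
Log2 difference ± SE of ACSL1, ACSS1 and ACSS2 (horizontal axes, each with its own range) as reported and under each alternative setting, filled where the limma adjusted p was under 0.05. The single open point is ACSS2 with RIN as a covariate, at -0.51.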

How the data were processed

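Total RNA of 3 control and 3 GDF11-treated HepG2 cultures (250 ng each) went into directional libraries that were read from 1 end over 75 bases, per the labels' protocols. The authors deposited 1 table of variance-stabilised log2 values for 60240 Ensembl genes. The submitters' processing notes name Trimmomatic, Salmon 1.2.1, DESeq2 and GRCh38, while the labels' protocols name STAR 2.6 and hg19, and the sources used here do not say which gave the table. Gene symbols were matched for 58349 IDs (96.9%).

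The variance-stabilising curve was inverted from its value for 0 reads (5.52), which gave normalised reads. Of the low values (up to 20 reads) 71.4% to 74.5% fell within 0.01 of whole reads, so no count test was run. Near a value of 8 a true log2 change appears at 0.696 of its size, near 10 at 0.914 and near 12 at 0.978. Differences of genes at low levels are therefore smaller on this scale than in reads. Lengths are those of GENCODE canonical transcripts lifted to GRCh37, and gene positions and promoter windows are from RefSeq GRCh38.p14 by symbol.

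Genes whose mean exceeded the lowest value by 0.5 or more entered a limma fit (version 3.58.1, R 4.3.3, mean trend, two-sided, no covariate), with Benjamini-Hochberg adjustment over all 18723. The procedure was tested on simulated data. The 10 synthetases and the lists were chosen with earlier results of these data known. All 10 are named, with up to 4 genes of lowest unadjusted p per list, genes at the lowest value, and SMAD7 and SKIL as a check of the treatment; 1 further gene of this rule is not reported here. Alternatives covered filters, normalization, scale (pseudocounts of 1 and 10), thresholds, variance prior, a replicate block, the RNA integrity number (RIN), weighting of libraries and omission of each library in turn. No replicates were merged, since within groups the chi-square per degree of freedom was 26.5 or more.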

Additional observations from a re-analysis of the deposited data

How the results depend on the processing

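Of 170 values of the 10 synthetases under 17 alternatives, 158 kept their direction and their side of the threshold. Values that changed sign were all of genes not called. ACSL3 stood at -0.03 with median centring and -0.35 with the RNA integrity number (RIN) in the fit, and at -0.20 to 0.18 without 1 library. ACSL4 stood at -0.04 with median centring, -0.10 with library weights and -0.61 with RIN, and at -0.21 to 0.18 without 1 library. ACSS3 stood at -0.03 with RIN. The number of synthetases called higher was 2 with library weights, and only 1 was called lower with RIN. Among named list genes, 462 of 544 values kept both, and 3 changed sign, all with RIN and uncalled: ACOT7 (0.01), ACBD4 (0.03) and ACBD6 (0.00). With library weights 12 list genes were called higher and 47 lower, with RIN 11 lower, and without 1 library 2 to 9 higher and 15 to 43 lower, the latter without control replicate 3.

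Over all genes, 2185 were higher and 2017 lower. These counts were 4473 and 4554 with library weights, 1149 and 721 with RIN, 1170 and 791 at an adjusted p under 0.01, and 803 and 554 with a difference of at least 1. Without 1 library they were 1397 to 3647 and 955 to 3993, the highest without control replicate 3. The cause was not tested. Whether replicate numbers pair the libraries is not settled. Deviations of same-numbered libraries from their group means correlated at -0.088, 0.375 and 0.478. Control replicates 2 and 3 each correlated best with the GDF11 library of their own number, while control replicate 1 correlated best with GDF11 replicate 2 (0.25). With the replicate block 3147 genes were higher and 3306 lower, and 40 list genes were lower, while the calls of the 10 synthetases did not change. The synthetases had 902 or more normalised reads in each library, on an estimated depth that is uncertain.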
